A study of Mus musculus with 12 samples.

Results

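The 60 genes described here lie on both sides of Akp3 on mouse chromosome 1. They were chosen by name and place, with earlier results of these data known. Of them, 23 lie before Akp3 in map order (called left here, from Pid1 to Dis3l2) and 37 after it (right, from Ecel1 to Hdac4). That stretch has 96 genes with a probe, out of 45616 genes or unnamed transcripts on the array. The Ugt1a cluster, which lies in the same stretch, was left out of the choice. Liver RNA came from male mice, 1 one-colour array per mouse, in 4 groups of 3: wild type (WT) with vehicle, WT with IIAEK, IAP-KO (Akp3-/-) with vehicle and IAP-KO with IIAEK. The mice were 7 weeks old, took vehicle (carboxymethylcellulose at 5 g/L) or IIAEK, a peptide named by its residues in single-letter code, at 600 mg/kg by mouth each day for 14 days, and went without food for 8 h before dissection. The labels name no strain and do not say how the Akp3 allele was made or whether wild-type mice were littermates, and they name no separate cages or litters, so p-values measure the spread between these samples.

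Akp3 encodes IAP, the alkaline phosphatase of the intestinal brush border, which removes phosphate from bacterial lipopolysaccharide and other substrates. A locus that has been altered is inherited together with its neighbours on the chromosome, which is why the genes beside a targeted gene are examined as a set of their own. The neighbours have no common task: they include parts of the ubiquitin and proteasome system, regulators of translation, ion channels and receptors, signalling enzymes, chromatin factors and proteins of membrane traffic. In bulk liver, a lower level from fewer cells of a type and from less RNA per cell cannot be told apart.

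Promoters are shown for 4 genes: Usp40, the 1 gene of the set whose 6 knockout arrays all lay below the 6 wild-type arrays; Armc9, which has a probe that separated the genotypes; Eif4e2, 1 of the leading genes near Akp3; and Cops7b, whose promoter is shared with Pde6d. They are RefSeq sequences of build GRCm38.p6, 250 bases before to 50 after the start, printed 5′ to 3′ on the strand of the gene, and the capitals mark motifs found on either strand. The GC box was searched as GGGCGG and held by 35.9% of 32544 promoters of the same length. The CCAAT box was searched by the 5 letters of its name and held by 37.4%. The TATA box was searched as TATAAA and held by 13.6%. A promoter was listed for 56 of the 60 genes, and of these 30 held a GC box, 15 a CCAAT box and 8 a TATA box.
Usp40: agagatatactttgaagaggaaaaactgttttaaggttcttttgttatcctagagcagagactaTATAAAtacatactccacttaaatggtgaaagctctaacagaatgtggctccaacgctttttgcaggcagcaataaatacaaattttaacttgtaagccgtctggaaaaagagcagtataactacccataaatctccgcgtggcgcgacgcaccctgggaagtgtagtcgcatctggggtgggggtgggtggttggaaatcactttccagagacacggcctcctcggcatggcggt
Armc9: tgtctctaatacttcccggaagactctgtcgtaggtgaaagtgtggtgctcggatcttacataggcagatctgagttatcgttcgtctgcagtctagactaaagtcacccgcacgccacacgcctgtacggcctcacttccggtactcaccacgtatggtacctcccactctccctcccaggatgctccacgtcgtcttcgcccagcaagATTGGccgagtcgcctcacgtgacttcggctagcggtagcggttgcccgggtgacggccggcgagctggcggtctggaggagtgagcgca
Eif4e2: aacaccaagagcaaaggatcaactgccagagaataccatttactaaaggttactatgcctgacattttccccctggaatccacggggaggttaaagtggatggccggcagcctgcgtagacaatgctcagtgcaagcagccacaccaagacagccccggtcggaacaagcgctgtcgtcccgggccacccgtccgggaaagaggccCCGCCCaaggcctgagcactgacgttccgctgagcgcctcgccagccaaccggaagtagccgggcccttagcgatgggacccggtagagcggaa
Cops7b: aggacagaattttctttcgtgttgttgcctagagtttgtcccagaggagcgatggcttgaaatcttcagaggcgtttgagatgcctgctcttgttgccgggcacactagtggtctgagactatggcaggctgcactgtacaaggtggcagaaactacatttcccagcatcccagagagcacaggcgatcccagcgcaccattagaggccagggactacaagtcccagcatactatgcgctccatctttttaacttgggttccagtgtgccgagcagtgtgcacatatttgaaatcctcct
The Usp40 window lies at chr1:88008502-88008801 (minus strand) and holds 1 TATA box, and the Armc9 window at chr1:86154530-86154829 (plus strand) holds 1 CCAAT box. The Eif4e2 window lies at chr1:87213661-87213960 (plus strand) and holds 1 GC box. The Cops7b window at chr1:86582671-86582970 (plus strand) holds none of the 3 motifs. Pde6d starts 136 bases before Cops7b on the other strand, so both genes read outward from one short stretch of DNA. These matches describe the letters in the window and no binding was measured.

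Levels are log2 signals relative to the array's 75th percentile, so a level of 0 is the brightness at that percentile, and levels of different probes are not comparable. Of the 60 genes, 42 were well above background on all 12 arrays, 12 on 0 arrays, and 45 were tested because all arrays of at least 1 group were above background (16 left of Akp3 and 29 right). Between 56.8% and 61.9% of all probes were well above background on an array. Hepatocyte markers were above background on all 12 arrays (7 of 7 genes on each). Akp3 itself (2 probes) and its relative Alppl2 were above background on 0 of 12 arrays and Alpi on 1, so liver RNA cannot check the genotype labels. Replicate 1 of each group was on slide 1 and replicates 2 and 3 on slide 2. On the first principal component of all tested genes (55.3% of the variance), WT vehicle 2 and 3 and KO vehicle 1 and 3 lay at 74.0 to 88.1 and the other 8 arrays at -57.2 to -11.3. Of 7 small-intestine markers, 5 to 7 were above background on WT vehicle arrays and 2 to 5 on the others, with summed levels of 6.11 to 6.56 in WT vehicle, 6.88 to 6.94 in WT IIAEK, 5.90 to 6.66 in KO vehicle and 6.39 to 6.75 in KO IIAEK. Their part in the results below was not tested.

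None of the 45 tested neighbours differed between the genotypes at an adjusted p under 0.05 (limma, Benjamini-Hochberg over 26403 genes), whether the genotypes were compared under vehicle, under IIAEK or averaged over both treatments. The same calls were made for 0.00379% of all tested genes under vehicle, 0.00757% under IIAEK and 0.0189% in the average (1, 2 and 5 genes). At an unadjusted p under 0.05 the average gave 9 of 45 neighbours, 6 lower and 3 higher in the knockout, which is 20% beside 16.5% of all tested genes (6.53% higher and 9.96% lower). Under vehicle the count was 3 of 45 (6.67%, all genes 6.88%) and under IIAEK 6 of 45 (13.3%, all genes 7.88%). The shares were not compared by a test.

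Averaged over both treatments, differences were small as well as uncalled. The median absolute difference between the genotypes was 0.17 on the log2 scale over the 45 neighbours and 0.20 over all tested genes. In 40 of the 45 the difference was under 0.5, and the 95% intervals of 39 lay within 1 on either side of 0, so a change of the RNA level by a factor of 2 lies outside the interval for most. The extremes of the average were Sh3bp4 at -0.81 and Col6a3 at 0.92. Under IIAEK alone the median absolute difference was 0.21 (all tested genes 0.21). The extremes were wider there, with Sh3bp4 at -1.14 and Col6a3 at 1.27, the 2 neighbours at 1 or more in size. Under vehicle alone the median was 0.16 (all tested genes 0.21), with extremes of -0.73 for Spp2 and 0.70 for Ackr3. The sign was the same under vehicle and under IIAEK in 34 of 45 neighbours and in 19092 of 26403 genes.

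**Figure D1:**
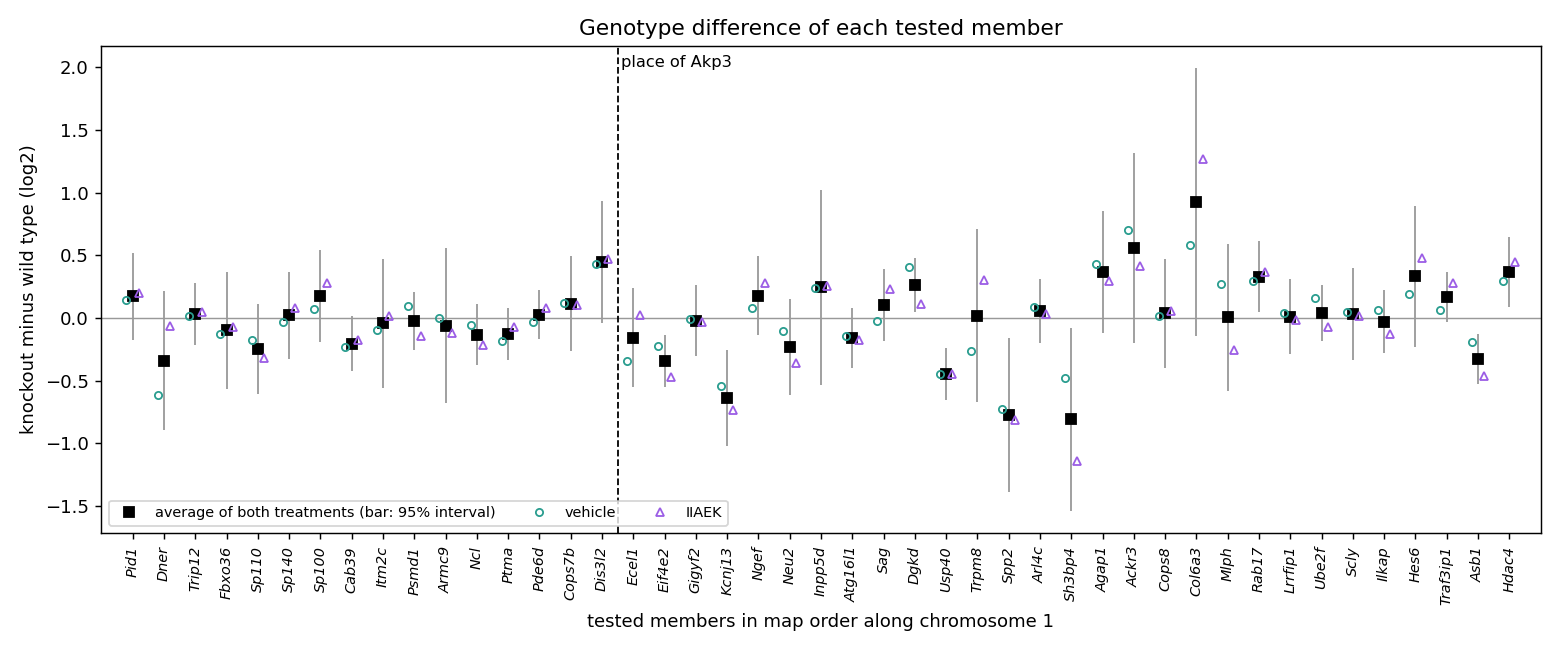
Knockout minus wild type (log2, vertical axis) for the 45 tested genes in map order (horizontal axis); squares are the average of both treatments with limma's 95% interval, circles vehicle and triangles IIAEK, and the dashed line marks the place of Akp3. Most squares lie within 0.5 of 0, with a median absolute difference of 0.12 over the 16 genes left of Akp3 and 0.23 over the 29 to its right (all tested genes 0.20).

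Among genes of the ubiquitin system, Usp40 stood lowest in the knockout. Usp40 belongs to the ubiquitin-specific proteases, which take ubiquitin off proteins. Its level was 1.86, 1.74 and 1.66 in WT vehicle and 1.64, 1.78 and 1.96 in WT IIAEK. The knockout arrays read 1.31, 1.39 and 1.22 with vehicle and 1.30, 1.33 and 1.42 with IIAEK. All 6 knockout arrays lay below all 6 wild-type arrays, with or without the peptide, and on both slides. The difference was -0.45 (SE 0.093, 95% interval -0.65 to -0.24, limma adjusted p = 0.204), a level 1.36-fold lower, and it was -0.45 under vehicle, -0.44 under IIAEK, -0.45 on slide 1 and -0.45 on slide 2. A second Usp40 probe gave -0.38, with wild-type arrays from -0.47 to -0.13 and knockout arrays from -0.84 to -0.46. Usp40 was thus the 1 of 45 neighbours (2.22%) without overlap over all arrays, and 1.63% of all tested genes had none.

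Asb1, a substrate adaptor of cullin ubiquitin ligases, was the other gene of this group near the top of the ranking. Wild-type levels were 0.05, -0.14 and 0.11 with vehicle and 0.25, 0.18 and 0.29 with IIAEK. Knockout levels were -0.10, -0.22 and -0.23 with vehicle and -0.24, -0.13 and -0.31 with IIAEK. The genotypes met only at WT vehicle 2, the lowest wild-type array, and did not overlap under IIAEK. The difference was -0.33 (SE 0.089, limma adjusted p = 0.229). A dimmer probe above background on 10 arrays gave -0.83, and the third, above background on 4 arrays, gave 0.35, so the 3 probes disagreed in sign. The remaining tested genes of the group, among them the ligase Trip12 (0.03), the proteasome subunit Psmd1 (-0.03), the signalosome subunits Cops7b (0.11) and Cops8 (0.04) and the NEDD8-conjugating enzyme Ube2f (0.04), lay within 0.12 of 0.

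The complexes to which these neighbours belong were measured through their other subunits too. In the COP9 signalosome, which takes NEDD8 off cullins, 0 of 10 tested subunits were called in the genotype average, 4 were higher and 6 lower, and the median was -0.15. In the regulatory particle of the proteasome 0 of 17 were called (6 higher, 11 lower, median -0.03). All tested genes had a median of -0.05, so both medians are given beside that value and nothing is drawn from them.

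Translation regulators next to Akp3 included Eif4e2, a cap-binding protein that blocks translation together with Gigyf2. Eif4e2 read 2.99, 2.77 and 3.06 in WT vehicle and 3.23, 3.22 and 3.06 in WT IIAEK. Knockout arrays read 2.71, 2.73 and 2.73 with vehicle and 2.62, 2.64 and 2.85 with IIAEK. Knockout was below wild type without overlap within each treatment, and the ranges met across treatments because the highest knockout array (IIAEK 3) exceeded WT vehicle 2. The difference was -0.35 (SE 0.094, limma adjusted p = 0.229), a 1.27-fold lower level, with -0.22 under vehicle and -0.47 under IIAEK. Its second probe gave -0.22. The partner Gigyf2 did not show such a gap: its brightest probe gave -0.02 (95% interval -0.30 to 0.26), and the other probes gave -0.15 and -0.18.

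Dis3l2, an exonuclease that degrades uridylated RNA and the left neighbour nearest to Akp3 that was tested, gave 0.45 (SE 0.220, limma adjusted p = 0.326). The knockout ranged from 1.67 to 2.73 and the wild type from 1.08 to 2.01, and KO vehicle 2 was the highest array. Its second probe pointed the other way, at -0.29, and the mean over both probes gave 0.08. On slide 1 the difference was -0.04 and on slide 2 it was 0.70. The nucleolar protein Ncl (-0.13) and the chromatin-associated acidic protein Ptma (-0.13) did not pass the test. A dimmer Ptma probe read 3.69 to 4.07 in wild type and 3.40 to 3.64 in knockout with no overlap, and its difference was -0.31 (limma over probes, adjusted p = 0.227).

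Of the channels, receptors and transporters, 5 of 12 could be tested. Kcnj13, an inward rectifier potassium channel of epithelia, read -2.89, -2.54 and -3.52 in WT vehicle and -2.83, -2.78 and -2.60 in WT IIAEK. In the knockout the levels were -3.32, -3.39 and -3.86 with vehicle and -3.34, -3.70 and -3.38 with IIAEK. Only WT vehicle 3 fell into the range of the knockout. The difference was -0.64 (SE 0.173, limma adjusted p = 0.229), or 1.56-fold lower, from a single probe, and no other gene of the set with an unadjusted p under 0.05 lay as close to Akp3 except Eif4e2. The scavenging chemokine receptor Ackr3 gave 0.56 (95% interval -0.20 to 1.31), an interval that includes 0.

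Spp2 and Col6a3 are the secreted and matrix genes with the widest differences. Spp2, a secreted phosphoprotein made by liver, read 5.03, 4.69 and 3.54 in WT vehicle and 5.15, 4.67 and 4.72 in WT IIAEK. Knockout levels were 3.66, 4.34 and 3.06 with vehicle and 4.03, 3.77 and 4.30 with IIAEK. Apart from WT vehicle 3 every wild-type array lay above every knockout array. The difference was -0.77 (SE 0.279, limma adjusted p = 0.260), a 1.71-fold lower level, with -1.24 on slide 1 and -0.54 on slide 2. Col6a3, a chain of collagen VI, gave 0.92 (SE 0.484, limma adjusted p = 0.350) from the brightest probe and -0.27 from the second, and both genotypes spanned more than 2 log2 units (-0.98 to 1.85 in wild type and -0.30 to 1.99 in knockout).

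Dgkd, a diacylglycerol kinase, was higher in every vehicle knockout than in every vehicle wild type. It read 0.64, 0.54 and 0.78 in WT vehicle and 0.98, 1.02 and 1.18 in KO vehicle. With IIAEK the groups overlapped, at 0.62, 0.91 and 0.84 in wild type and 0.79, 0.99 and 0.92 in knockout. The average difference was 0.26 (SE 0.097, limma adjusted p = 0.264), and the change of the difference between treatments was -0.30 (95% interval -0.73 to 0.13). Cab39, the scaffold that activates the kinase LKB1, gave -0.20 (SE 0.0998, limma adjusted p = 0.323), and its second probe gave -0.38.

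Hdac4, a class IIa histone deacetylase at the right end of the stretch, read -0.75, -1.40 and -1.02 in WT vehicle and -1.25, -0.80 and -0.98 in WT IIAEK. Knockout levels were -0.75, -0.72 and -0.81 with vehicle and -0.60, -0.53 and -0.57 with IIAEK. The knockout arrays lay together at the upper end, and WT vehicle 1 and WT IIAEK 2 reached them. The difference was 0.37 (SE 0.126, limma adjusted p = 0.252), and a second probe gave 0.40. The nuclear body genes Sp110 (-0.25, with 0.30 and 0.16 from its other probes), Sp140 (0.02) and Sp100 (0.18), whose cluster lies to the left and has near-identical copies that a probe may not tell apart, did not pass the test. The wider list of interferon-induced and nuclear body genes had 0 of 21 called, 17 higher and 4 lower, with a median of 0.18, beside 43.2% higher and a median of -0.05 over all tested genes.

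Proteins of membrane traffic gave differences in both directions. Rab17, a small GTPase of epithelial transport, ranged from 0.66 to 1.28 in wild type and from 0.88 to 1.65 in knockout, and did not overlap under IIAEK. Its difference was 0.33 (SE 0.128, limma adjusted p = 0.269), with 0.23 from a second probe. Sh3bp4, a regulator of endocytosis, ranged from -2.84 to -1.88 in wild type and from -4.53 to -1.77 in knockout, where KO vehicle 3 was the highest of all arrays. Its difference was -0.81 (SE 0.332, limma adjusted p = 0.277). Atg16l1, which brings the LC3 conjugation machinery to membranes, gave -0.16. The list of autophagy conjugation genes, Atg16l1 included, had 0 of 13 called with a median of -0.12.

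Armc9, a protein of the ciliary base, is the gene of the set in which the probes differed most in what they read. The brightest probe gave -0.06 (95% interval -0.68 to 0.56) and the second 0.07. The third and dimmest, designed on another RefSeq transcript of the gene (1 of 3 probes), read -6.00, -6.17 and -5.62 in WT vehicle and -5.68, -5.93 and -6.90 in WT IIAEK. In the knockout it read -3.58, -4.85 and -3.99 with vehicle and -3.66, -3.88 and -4.33 with IIAEK. Every knockout array read above every wild-type array. It was well above background on 6 of 6 knockout arrays and on 1 of 6 wild-type arrays, WT vehicle 3.

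The wild-type readings of this probe are mostly bounds, so its difference has no measured size. Under IIAEK, 0 of 3 wild-type arrays were above background. In the main processing the knockout was there at least 2.97-fold higher, computed against the lowest signal above background on each array. This bound holds for that processing only. Under vehicle 1 of 3 wild-type arrays was above background, and no fold is given. The probe was singled out after its values had been seen, and it passed the background rule only through the knockout groups, where it is high. Fitted with all 33490 probes that passed, it was called in the genotype average (limma adjusted p = 0.0455), as were 0.0269% of the probes (9), and a probe kept in that way had to differ. Fitted within 1 treatment, 0 of the 81 tested probes of the set were called (all probes 0.00299% under vehicle and 0.00597% under IIAEK). Leaving out 1 array ended the call in 11 of 12 fits (adjusted p 0.0299 to 0.215), and normexp background correction ended it too (adjusted p = 0.197). Among the other tested probes of the set, genotypes did not overlap for 1 of Usp40 and 1 of Ptma (with Armc9 3 of 81, 3.70%, all probes 1.64%).

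**Figure D2:**
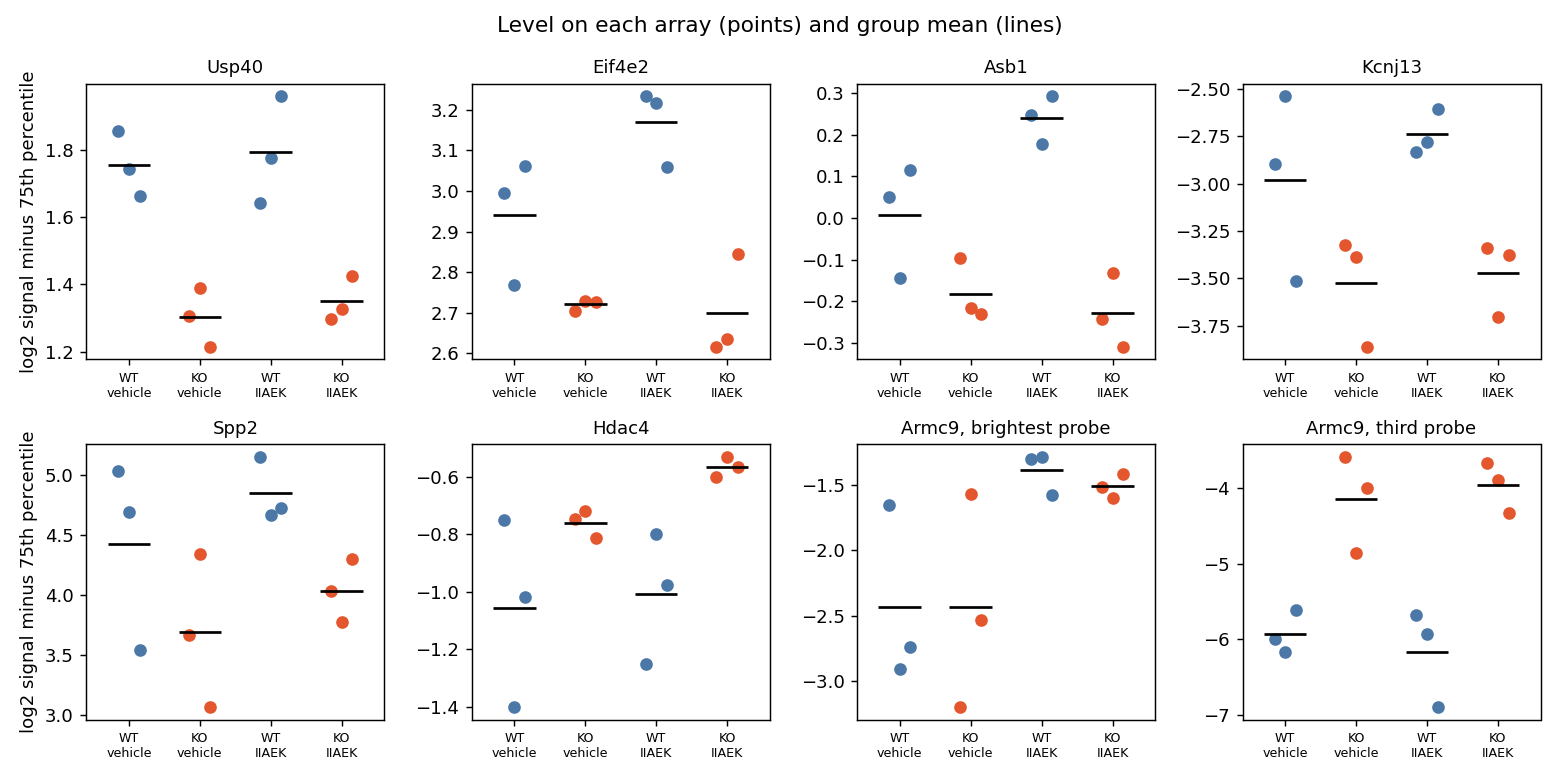
Level on each array (points, log2 signal minus the 75th percentile) and group mean (lines) for Usp40, Eif4e2, Asb1, Kcnj13, Spp2, Hdac4 and the brightest and the third probe of Armc9; wild type is blue and knockout orange. Usp40 and the third Armc9 probe are the panels in which all 6 knockout arrays lie on one side of all 6 wild-type arrays.

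Under IIAEK, 16 of 45 neighbours (35.6%) had genotype groups that did not overlap, 7 with the knockout higher and 9 with it lower, while this held for 27.8% of all tested genes (12.9% higher and 14.9% lower). They included Pid1 (0.20), Ncl (-0.21), Ngef (0.28), Mlph (-0.26), Hes6 (0.47) and Traf3ip1 (0.27). Under vehicle it held for 3 of 45, Eif4e2, Dgkd and Usp40 (6.67%, all genes 8.65%). The interaction was called for 0 of 45 neighbours and 0 of all tested genes with limma, and at an unadjusted p under 0.05 for 0 of 45 neighbours and 1.61% of all genes.

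Genes that were not tested make up the remainder. Slc16a14, Gpr55, Spata3, B3gnt7, Nppc, Prss56, Chrnd, Chrng, Efhd1, Gbx2, Asb18 and Klhl30 were not well above background on any array. They include the muscle acetylcholine receptor subunits Chrnd and Chrng, right beside Akp3, the natriuretic peptide Nppc and the homeobox gene Gbx2. The serotonin receptor Htr2b was above background on 3 arrays, the neuropeptide receptor Nmur1 on 2 and the centromere chaperone Hjurp on 4, in no whole group, and none of these was tested.

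By distance, the tested genes nearest to Akp3 were Pde6d (0.03, 95% interval -0.17 to 0.22), Cops7b (0.11, -0.27 to 0.49) and Dis3l2 on the left, and Ecel1 (-0.16, -0.55 to 0.24), Eif4e2 and Gigyf2 on the right. Pde6d, a carrier of prenylated proteins, and Cops7b share the head-to-head promoter printed above, and neither passed the test. All 9 neighbours with an unadjusted p under 0.05 in the genotype average lay right of Akp3 (9 of 29), and 0 of 16 lay left, beside 16.5% of all tested genes. The median absolute difference was 0.12 on the left and 0.23 on the right, beside 0.20 over all tested genes. The sides were not compared by a test.

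Along the whole chromosome, 867 tested genes were cut into windows of 20 counted outward from Akp3, which gave 42 full windows. Members and other genes of the stretch were counted alike. The first window to the left, from Dis3l2 to Trip12, had a median absolute difference of 0.12, the lowest of the 42, and 1 of 20 genes at an unadjusted p under 0.05. The first to the right, from Ecel1 on, had a median of 0.20, with 18 of the 42 windows at or above it, itself included. In it 8 of 20 genes (40%) were at that p, the highest share of the 42 beside 15.9% of the chromosome (138 of 867). Windows far from Akp3 came within 1 gene of it, with 7 of 20 (35%) from C4bp to Nucks1 and 7 of 20 (35%) from Ptpn7 to Gpr25. The first window to the right also holds Ugt1a10, the 1 called gene among 16 tested genes of the stretch outside the set. Ugt1a10, a glucuronosyltransferase whose gene lies just beyond Usp40, ranged from -2.18 to -0.03 in wild type and from 0.42 to 2.35 in knockout, a difference of 2.74 (SE 0.330, limma adjusted p = 0.0362). Over the chromosome 3 of 867 genes were called in the genotype average, beside 5 of all 26403 tested genes. Besides Ugt1a10 these were Lad1 (1.74, limma adjusted p = 0.00176), in the window from Ptpn7 to Gpr25, and Utp14b. Utp14b (-1.47, limma adjusted p = 0.0362) lay in the window from Dner to Slc4a3. Another of the 5 carries a chromosome 1 position as its name. These counts were not compared by a test.

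**Figure D3:**
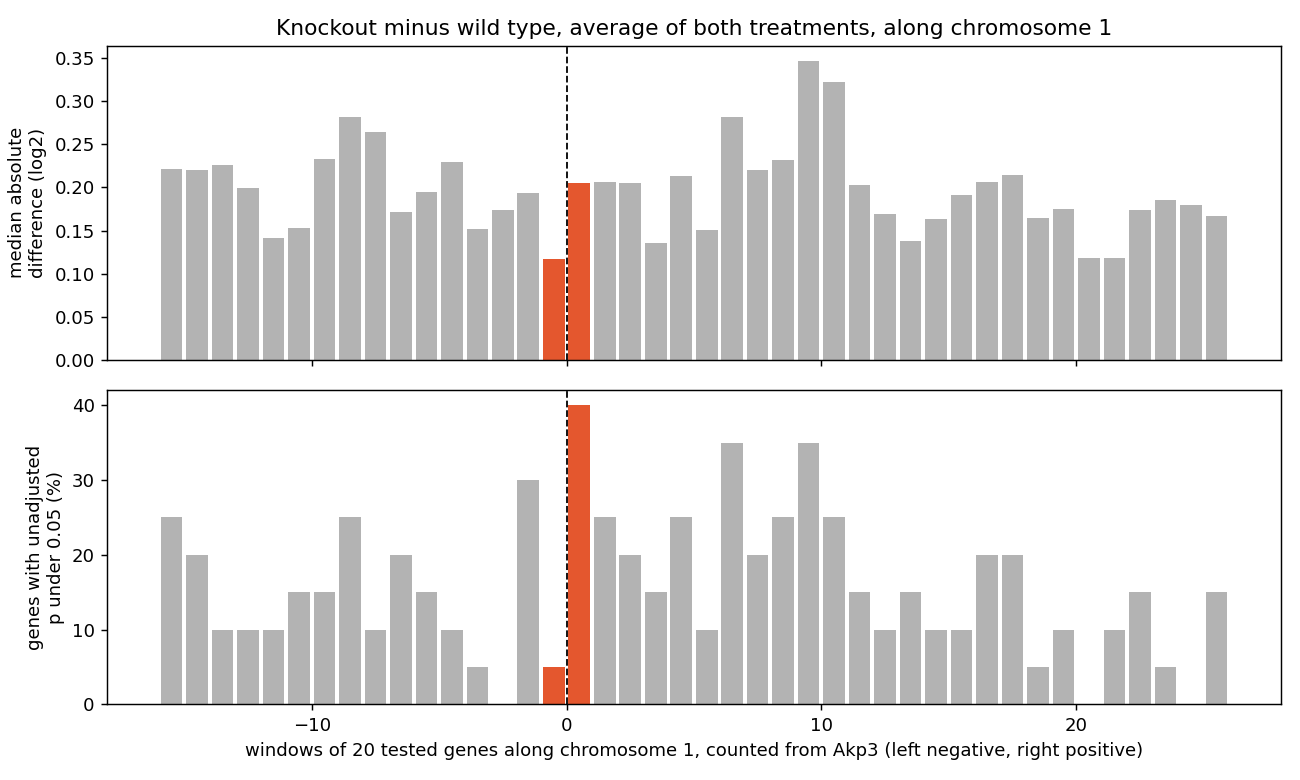
Median absolute genotype difference (upper panel, log2) and share of genes with an unadjusted p under 0.05 (lower panel, percent) in 42 windows of 20 tested genes along chromosome 1, by place from Akp3 (dashed line); the windows beside Akp3 are orange. The left window has the lowest median (0.12), and the right window has the highest share (40%). The distant windows from C4bp to Nucks1 and from Ptpn7 to Gpr25 reach 35% each.

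The peptide was the other factor. With limma, IIAEK called 0 of the 45 neighbours in wild type (all tested genes 0.00379%) and 0 in knockout (all tested genes 0%). At an unadjusted p under 0.05 the counts were 1 in wild type (2.22%, all genes 12.6%) and 5 in knockout (11.1%, all genes 6.47%). Armc9 was the neighbour with an unadjusted p under 0.05 in both genotypes. Its brightest probe read -1.65, -2.91 and -2.74 in WT vehicle and -1.30, -1.29 and -1.58 in WT IIAEK. Knockout levels were -3.20, -1.57 and -2.53 with vehicle and -1.52, -1.60 and -1.42 with IIAEK. The IIAEK arrays were all near the top, and 1 vehicle array of each genotype lay with or beside them. The difference was 1.04 in wild type (SE 0.395, limma adjusted p = 0.395) and 0.92 in knockout (SE 0.395, limma adjusted p = 0.656).

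The low vehicle arrays of Armc9 were WT vehicle 2 and 3 and KO vehicle 1 and 3, the arrays set apart on the first component. For 12 of the 45 neighbours (26.7%) these arrays did not overlap the other 8, beside 22.8% of all tested genes, a description with no test since the component was computed from the same values. On those arrays Itm2c, a membrane protein of the BRI family, was at 4.06 to 4.42 against 3.15 to 3.61. Inpp5d, the lipid phosphatase SHIP1 of blood cells, was at 0.36 to 0.96 against -1.37 to -0.33. Scly, which recycles selenium from selenocysteine, was lower there, at 2.88 to 3.26 against 3.48 to 3.88. Mlph and Lrrfip1 were also higher there, and Pid1, Armc9, Cops7b, Gigyf2, Atg16l1, Ilkap and Hes6 lower. Macrophage markers (7 of 7 above background on every array) had a median deviation of 0.47 to 0.95 on the 4 arrays and -0.86 to 0.36 on the others. Their summed level was 6.75 to 8.32 in WT vehicle, 6.77 to 8.11 in KO vehicle, 6.41 to 7.51 in WT IIAEK and 6.37 to 7.18 in KO IIAEK. Stellate cell and fibroblast markers (6 of 6 above background on every array) moved with the same arrays, at 0.43 to 0.63 against -0.59 to 0.32. Their summed level was 6.20 to 7.72 in WT vehicle, 6.54 to 7.41 in KO vehicle, 6.17 to 6.53 in WT IIAEK and 6.28 to 6.87 in KO IIAEK. So did cholangiocyte markers (3 or 4 of 4 above background), at 0.62 to 0.96 against -0.89 to -0.20. Their summed level was -1.12 to -0.01 in WT vehicle, -1.32 to -0.03 in KO vehicle, -1.74 to -0.98 in WT IIAEK and -1.39 to -1.04 in KO IIAEK. The part of these markers in the levels was not tested.

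One wild-type vehicle array decided what the peptide contrast called. Without WT vehicle 1, 7 of 45 neighbours (15.6%) were called in IIAEK minus vehicle in wild type, beside 14.8% of all tested genes (3908). Armc9 (1.43), Neu2 (0.72), Scly (0.63) and Pid1 (0.52) were then higher with IIAEK and Col6a3 (-2.28), Itm2c (-1.01) and Mlph (-0.996) lower, with limma adjusted p from 0.0317 to 0.0460. That fit sets the WT IIAEK arrays against the 2 WT vehicle arrays that stand apart. With the 4 vehicle arrays left out instead, WT vehicle 1 is the only wild-type vehicle array, and its spread is assumed to be that of the other groups. Set against that 1 array, Mlph (0.50), Neu2 (-0.14), Col6a3 (0.15), Pid1 (-0.34), Scly (-0.26) and Itm2c (0.16) had the other sign. WT vehicle 1 carried more pancreas marker signal, with a median deviation of 2.31 where the other 11 arrays lay between -0.67 and 0.33. By summed level it stood apart less, at 4.33 beside 4.03 on WT vehicle 2 and 3.12 to 3.94 on the rest. All 7 pancreas markers were above background on WT vehicle 1 and 4 to 6 on the other arrays, and their part was not tested.

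**Figure D4:**
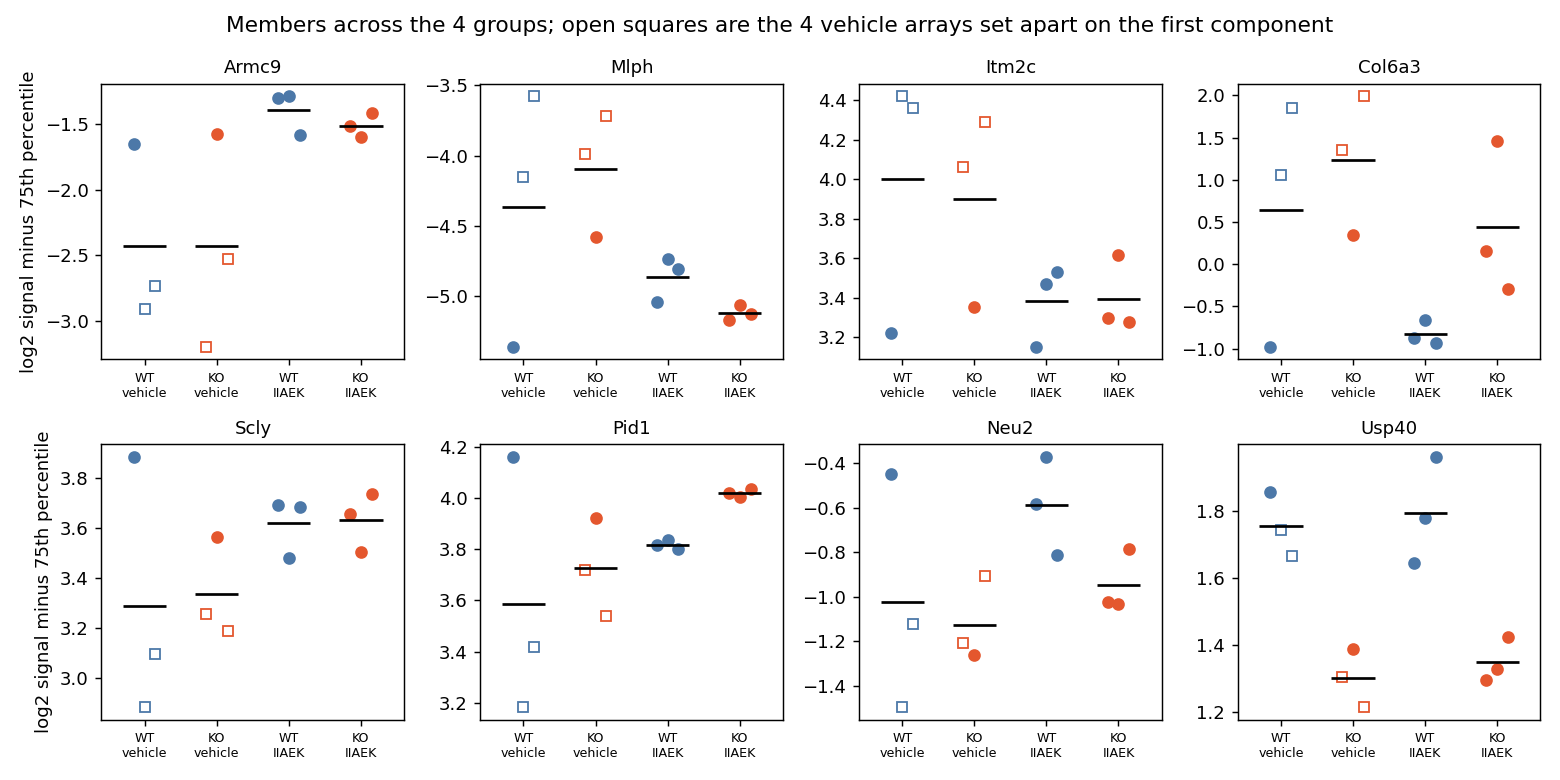
Level on each array (log2 signal minus the 75th percentile) of Armc9, Mlph, Itm2c, Col6a3, Scly, Pid1, Neu2 and Usp40 in the 4 groups; lines are group means, wild type is blue, knockout orange, and open squares are WT vehicle 2 and 3 and KO vehicle 1 and 3. In the first 6 panels the open squares lie apart from the filled vehicle points, and in the Usp40 panel the genotypes separate.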

How the data were processed

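Per the file headers, the authors scored arrays in Agilent's Feature Extraction 10.7.3.1; the deposited processed signal is a background-subtracted intensity per spot (build mm9). The authors' deposited series table holds log2 values, which matched the scanner values shifted to the 75th percentile and centred on each probe (r 0.9997 to 0.9999 across probes), with column medians from -0.154 to 0.172. Spots flagged non-uniform were dropped and spots of a probe averaged. Values are log2 signal minus the array's 75th percentile (453.6 to 758.5). Names came from RefSeq transcripts and map order from RefSeq gene starts (GRCm38.p6), and each gene was represented by its brightest probe. Of 45616 genes, 26403 passed the background rule given above and were tested with limma 3.58.1 (R 4.3.3): 1 mean per group over 12 arrays, 8 residual degrees of freedom, Benjamini-Hochberg, two-sided, threshold 0.05. The scripts were tested on simulated data. Errors are SE from limma, and 12 arrays limit the precision.

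The 60 genes and all lists were chosen with earlier results of these data known. Genes named are those called, filled up to 12 by the smallest unadjusted p in the genotype average, the 3 tested nearest Akp3 on each side, genes never above background and called genes of the stretch. Others were named after their values were seen, as examples of a list, of probes that disagree or of the arrays that stand apart. Lad1 and Utp14b were added as the other called genes of chromosome 1. Alternatives were normexp (offset 50, median signals), the series table, quantile normalization, the mean over probes, no filter, limma's trend and robust options, only the groups compared, the slide or replicate number as a block, slide 2 alone, leaving out each array or the 4 vehicle arrays, and, added after seeing the data, each probe on its own.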

Additional observations from a re-analysis of the deposited data

Results flagged for a closer look

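The third Armc9 probe lies outside the main measurement, which uses the brightest probe of a gene. It was above background on 6 of 6 knockout arrays and 1 of 6 wild-type arrays. In the main processing its reading under IIAEK was at least 2.97-fold higher in the knockout, where 0 of 3 wild-type arrays were above background. This bound holds for that processing only. With normexp the fitted log2 difference in the genotype average was 0.40, and the probe was not called. It was singled out after its values had been seen and passed the background rule only through the knockout groups, where it is high. The 2 brighter Armc9 probes gave -0.06 and 0.07, and no value here tells which transcript the third probe measured.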

How the results depend on the processing

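Of 139 counts of called neighbours recomputed under the alternatives, 137 stayed as they were. Without WT vehicle 1, IIAEK minus vehicle in wild type called 7 neighbours (0 to 7 over the fits without 1 array), and the fit of each probe on its own, added after seeing the data, called 1 (Armc9) in the genotype average. The 12 genes with the smallest unadjusted p kept their direction in 22 of 22 alternatives each. They were picked by p from the arrays that the alternatives use again, so a kept direction is no separate evidence. Slide 1 alone was not among the alternatives, and Dis3l2, 1 of the 12, gave -0.04 there. Among the 45 neighbours 0 to 10 had the other sign in the genotype average under an alternative, with 9 on slide 2 alone, where Inpp5d gave -0.31. Of the 16 named by rule, 3 changed sign. Pde6d gave -0.0031 with normexp and -0.0071 to 0.052 without 1 array. Cops7b gave -0.085 without the 4 vehicle arrays. Gigyf2 gave 0.024 on slide 2 alone and -0.10 to 0.071 without 1 array. The reversals of Mlph (0.50), Neu2 (-0.14), Col6a3 (0.15), Pid1 (-0.34), Scly (-0.26) and Itm2c (0.16) in the wild-type peptide contrast arose without the 4 vehicle arrays, a fit with WT vehicle 1 as the only array of its group, assumed to vary like the others. The causes were not tested. Under the replicate block 0 neighbours were called in each comparison. Same-numbered arrays correlated from -0.55 to 0.65 (8 of 18 pairs over 0.1) and 5 of 12 arrays were closest to their own number, so the numbers were not taken as pairs. The genes called over the whole array in the genotype average were 5, 129 without the 4 vehicle arrays (1 vehicle array left per genotype), with 0 neighbours in either, and 2 with the replicate block. The third Armc9 probe stayed called under the slide block (adjusted p = 0.0472), quantile normalization (0.0419) and the series table (0.0459), and was not called with the replicate block (0.121) or on slide 2 alone (0.280). Normexp moved the median of all genes under vehicle from -0.07 to -0.12.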
